A study of Mus musculus with 4 samples.

Results

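The IL-6 cytokine family and its receptors were followed in the inflamed colon of mice with a T cell deletion of Junb. The 10 genes are the ligands Il6, Osm (oncostatin M), Il11 and Lif, the ligand-specific receptor chains Il6ra, Osmr, Il11ra1 and Lifr, the shared receptor chain Il6st, which encodes gp130, and the transcription factor gene Stat3. They were taken by gene name from the non-control spots of the arrays, which gave 21 of 56594 probes. Of the 10 genes, 9 had a probe that passed the filter on dim signals, among 19325 genes tested of 37066 gene names. Lif did not pass.

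C57BL/6 mice of 2 genotypes were compared, each with 2 one-colour Agilent arrays of whole colon RNA. The mutants were Junb fl/fl mice carrying Cd4-Cre, and the controls were Junb fl/fl mice, so both carried the floxed alleles. The recombinase is driven by Cd4 sequences and acts in the T lineage, including CD8 and regulatory T cells, and leaves the other cells of the colon with an intact gene. All animals had drunk dextran sulphate sodium (DSS), a polymer that injures the colon epithelium and causes colitis, and the colon was taken on day 5. Their age, and whether animals were pooled, is not given in the sources used here.

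All 4 arrays lay on the same slide and were read in the same scan. An array had between 27939 and 29091 of 56605 probes well above background, and none had a saturated spot. Xist, transcribed from the inactive X chromosome, was well above background on the replicate 1 arrays of both genotypes and on neither replicate 2 array, and Eif2s3y, a Y-linked gene, was well above background on the replicate 2 arrays alone. Replicate 1 thus had a female and replicate 2 a male pattern at both genes in each genotype. The labels give no sex, and differences are also given for each replicate pair. The targeted gene Junb had log2 signals of 4.44 and 4.47 in mutants and 4.23 and 4.39 in controls, a difference of 0.15 ± 0.11 (SE, n = 2 and 2, limma adjusted p = 0.691). Junb stays intact outside the T cell lineage, so its level in whole tissue does not check the deletion. Epithelial markers had a summed signal of 1183 and 1328 in mutants and 1244 and 1248 in controls (in units of each array's 75th percentile), with a median log2 difference of 0.04 over 8 genes.

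Ligands of the IL-6 family signal through complexes that contain gp130. IL-6 and IL-11 first bind a private receptor chain, whereas LIF and oncostatin M use the LIF receptor or oncostatin M receptor chain beside gp130. The receptor complex activates Janus kinases, which phosphorylate STAT3, and STAT3 in turn induces its own inhibitor SOCS3. In the colon, IL-6, IL-11 and related signals act on epithelial cells during repair, oncostatin M from leukocytes acts on stromal cells, and IL-11 is made by fibroblasts. JunB is a subunit of the AP-1 transcription factor.

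Promoter windows from RefSeq (GRCm38.p6, 250 bases before the gene start) were available for 9 of the 10 genes, and are shown for the pair of ligand genes in which motif letters were found and whose signal could be measured. The letters searched on both strands were TGANTCA for AP-1, TTCNNNGAA for STAT factors and GGGANTTTC for NF-κB. Capitals mark the matches, which did not overlap each other. The windows are Il6 (chr5:30012864-30013113, plus strand) and the second of 2 windows of Il11 (chr7:4778142-4778391, minus strand), written 5′ to 3′ along the transcribed direction.
Il6: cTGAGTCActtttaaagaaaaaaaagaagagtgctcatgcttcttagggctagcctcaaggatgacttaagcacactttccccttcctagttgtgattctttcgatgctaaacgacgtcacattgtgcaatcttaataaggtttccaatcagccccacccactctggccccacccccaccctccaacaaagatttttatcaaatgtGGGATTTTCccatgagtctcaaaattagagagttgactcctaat
Il11: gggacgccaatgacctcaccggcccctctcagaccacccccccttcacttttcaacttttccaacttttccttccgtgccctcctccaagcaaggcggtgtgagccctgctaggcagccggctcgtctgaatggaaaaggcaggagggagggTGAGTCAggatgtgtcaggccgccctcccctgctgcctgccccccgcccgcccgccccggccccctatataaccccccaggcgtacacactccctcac
The Il6 window holds TGAGTCA starting 249 bases and GGGATTTTC starting 44 bases before the gene start. The Il11 window holds TGAGTCA starting 98 bases before it. Over all 32851 mouse windows of this length, 6.75% hold the AP-1 letters, 7.02% the STAT letters and 0.941% the NF-κB letters. Among the 9 genes with a window, the AP-1 letters were found in 3, namely Il6, Il11 and Lif, and the STAT letters in none. Counted by window, the AP-1 letters were in 3 of 12. Osm was the gene without a window, so its promoter was not searched. A match is a description of the letters and not of binding.

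The comparison asks how this cytokine axis differed in a colon that the submitters describe as having worse DSS colitis. The ligands Il6, Osm and Il11 had higher signals in the mutant than in the control of the same replicate number in both pairs, by about the same amount in each pair. The receptor genes and Stat3 differed much less, by at most 0.41 on the log2 scale for the brightest probe of each gene. No gene of the 19325 passed an adjusted p of 0.05 in limma (0.0% called, smallest adjusted p = 0.373), while 1796 had an unadjusted p under 0.05. The differences below are therefore given as values, and none of them is a call after correction for multiple testing in this fit, which has no term for the replicate number. A second rule, at least 2-fold with an unadjusted limma p under 0.05, took 2 of the 9 members as higher, Il6 and Osm, where 0.719% of all genes were higher by this rule. It took none of the members as lower, against 0.642% of all genes. Over the 9 members the median log2 difference was 0.25, with 5 higher and 4 lower, beside a median of 0.02 over all genes. In bulk tissue, more cells that make a transcript and more transcript per cell cannot be told apart.

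**Figure D1:**
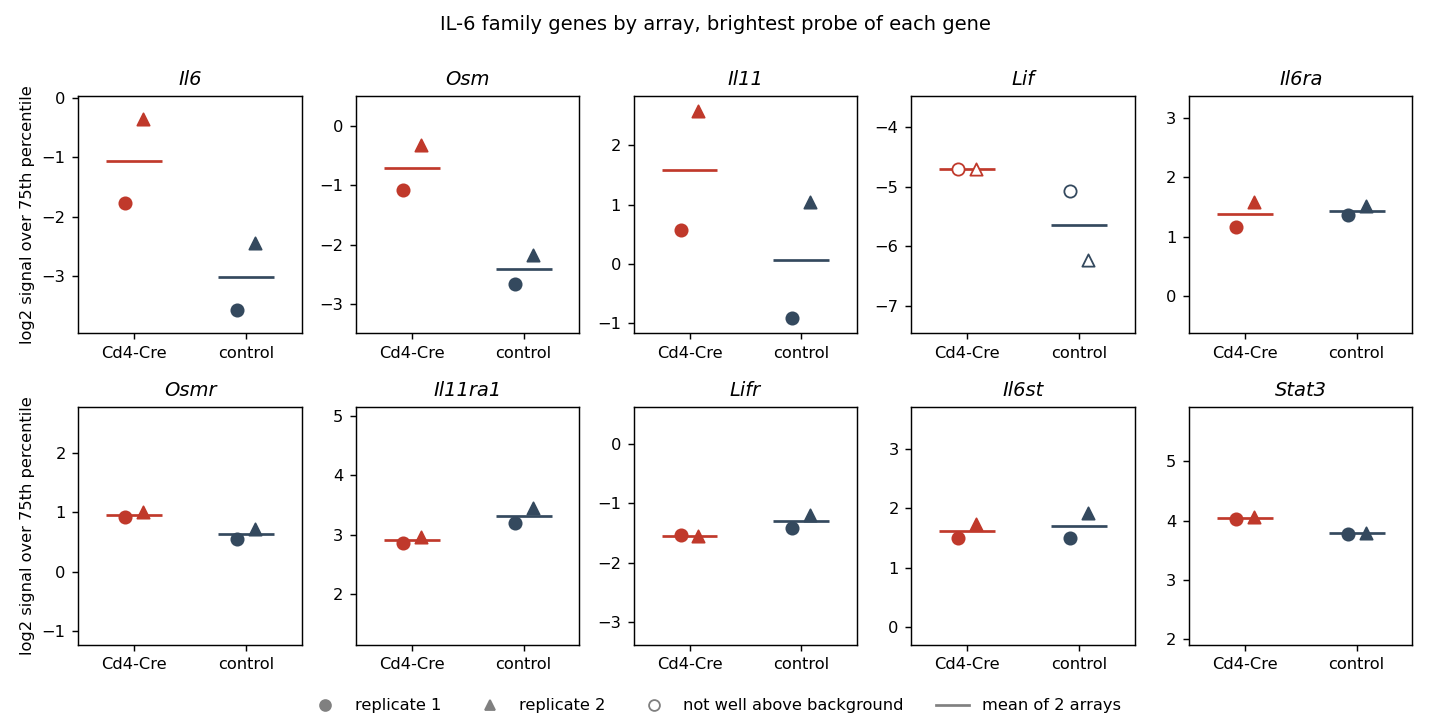
Log2 signal of each of the 10 genes on every array, relative to the array's 75th percentile, for the brightest probe that passed the filter (for Lif its only probe). Each panel spans 4 log2 units, so distances can be compared between panels but levels cannot. Il6 and Osm lie higher on both Cd4-Cre arrays than on either control array, Il11 is higher on replicate 2 in both genotypes, and the Lif spots are open because none was well above background.

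Il6 encodes interleukin-6, made by macrophages, stromal cells and other cells in inflamed gut. Its brightest probe (chr5:30346367-30346426 on mm9, the build of the array files) read an intensity of 91.4 and 210 in mutants and 27.7 and 60.1 in controls. After scaling, the log2 signals were -1.77 and -0.36 in mutants and -3.57 and -2.45 in controls. Both mutant arrays lay above both control arrays, and replicate 2 was the higher array in each genotype. The geometric mean signal of Il6 in mutants was 3.87 times that in controls (log2 difference 1.95 ± 0.59, SE, n = 2 and 2, limma adjusted p = 0.453, unadjusted p = 0.0208), with 1.81 in the replicate 1 pair and 2.10 in the replicate 2 pair. Only 0.223% of all genes had a larger positive difference. A second Il6 probe (chr5:30346159-30346218) was well above background on both mutant arrays and on neither control array. Its intensities were 69.4 and 95.4 in mutants and 5.26 and 8.11 in controls, which makes it at least 4.44-fold higher. This probe passed the filter through the mutant arrays alone, so its bound is a description and no separate test of Il6. A bound of this kind sets the brighter arrays against the lowest signal that counts as well above background on the dim arrays. The first probe's difference was 1.16 after normexp background correction and 1.25 without mutant replicate 2, and its unadjusted p was 0.0752 without that array and 0.0867 without control replicate 1.

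Osm encodes oncostatin M, a product of activated myeloid cells and T cells. Its brightest probe (chr11:4140873-4140932, mm9) read 146 and 214 in mutants and 52.4 and 73.0 in controls, or log2 signals of -1.09 and -0.33 in mutants and -2.65 and -2.17 in controls. The groups did not overlap, and each mutant array exceeded the control array of the same number. The geometric mean Osm signal in mutants was 3.26 times that in controls (log2 difference 1.70 ± 0.32, SE, n = 2 and 2, limma adjusted p = 0.418, unadjusted p = 0.00312), with 1.57 and 1.84 in the replicate 1 and replicate 2 pairs. Its unadjusted p stayed under 0.05 in all 12 alternative settings. The difference was 1.11 after normexp correction. A second Osm probe, at chr11:4139500-4139559, read 4.0 and 3.15 in mutants and 4.65 and 5.31 in controls. All 4 readings were near background, so this probe gives no measure of the gene.

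Il11 encodes interleukin-11. Its only probe (chr7:4724847-4724906, mm9) read 465 and 1603 in mutants and 176 and 681 in controls, or log2 signals of 0.58 and 2.58 in mutants and -0.91 and 1.05 in controls. The genotypes overlapped, because replicate 1 of the mutants lay below replicate 2 of the controls. The geometric mean in mutants was 2.84 times that in controls (log2 difference 1.51 ± 0.88, SE, n = 2 and 2, limma adjusted p = 0.634, unadjusted p = 0.147). The difference was 1.49 in the replicate 1 pair and 1.53 in the replicate 2 pair, while replicate 2 exceeded replicate 1 by 1.98 over both genotypes. With the replicate number as a block in the fit, the difference of 1.51 had an SE of 0.11 and a limma adjusted p = 0.0416. Without mutant replicate 2 or control replicate 1 the difference was 0.51 and 0.53, and without mutant replicate 1 or control replicate 2 it was 2.51 and 2.49. The replicate number goes with the sex pattern, and sex and any other difference between replicates 1 and 2 cannot be told apart.

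Lif encodes leukaemia inhibitory factor. Its probe (chr11:4172032-4172091, mm9) read 12 and 10.3 in mutants and 9.86 and 4.36 in controls, none of them well above background. The gene was not detectable at this signal in either genotype.

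**Figure D2:**
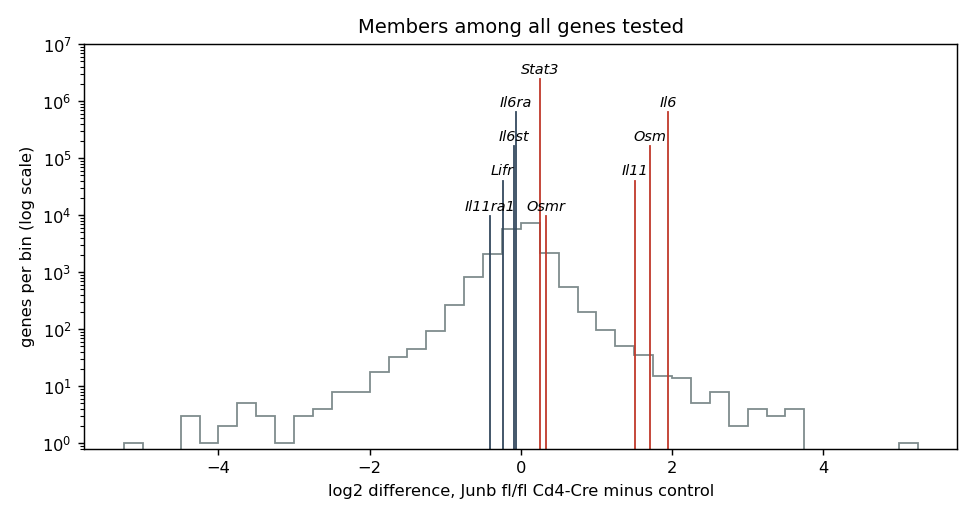
Distribution of the log2 difference over 19325 genes, in bins of 0.25 and with a log scale for the number of genes, with vertical lines for the 9 members tested. The lines' heights only separate the names. Il6, Osm and Il11 lie in the right tail at 1.95, 1.70 and 1.51, and the receptor genes and Stat3 lie between -0.41 and 0.33.

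By an unadjusted limma p under 0.05, 5 of the 9 members were taken, where 9.29% of all genes were. They were Il6, Osm, Osmr and Stat3 in the higher direction, against 5.31% of all genes, and Il11ra1 in the lower direction, against 3.98%. Among the 9 members tested, both mutant arrays lay above both control arrays for 4, Il6, Osm, Osmr and Stat3, where 25.7% of all genes did so. They lay below for 2, Il11ra1 and Lifr, where 17.6% of all genes did so. In either direction the groups were apart for 6 of 9 members and 43.2% of all genes. With 2 arrays a group, an exact permutation test of a single gene cannot give a p below 0.333, so groups that do not overlap carry little weight for any of these genes.

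Il11ra1 encodes the private receptor chain for interleukin-11. Its probe (chr4:41716285-41716344, mm9) had log2 signals of 2.86 and 2.96 in mutants and 3.19 and 3.45 in controls. Both mutants were below both controls, opposite in direction to the ligand. The gene was 1.33-fold lower in the mutants (log2 difference -0.41 ± 0.13, SE, n = 2 and 2, limma adjusted p = 0.468, unadjusted p = 0.0239), with -0.34 and -0.49 in the replicate pairs. Its unadjusted p was under 0.05 in 8 of 12 alternative settings.

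Osmr encodes the chain that joins gp130 in the oncostatin M receptor. Its brightest probe had log2 signals of 0.92 and 1.01 in mutants and 0.55 and 0.72 in controls, so the mutants were higher without overlap. The difference was 0.33 ± 0.13 (SE, n = 2 and 2, limma adjusted p = 0.536, unadjusted p = 0.0495). The unadjusted limma p was 0.0695 after normexp correction, 0.0515 after quantile normalization and 0.152 with the mean of the passing probes. It was under 0.05 in 3 of 12 alternative settings. Before scaling, the intensities of the brightest Osmr probe overlapped, at 586.73 and 540.91 in mutants and 481.81 and 541.24 in controls. Of its other probes, the one at chr15:6791978-6792037 gave 0.40 ± 0.27 and the one at chr15:6804987-6805046, designed on another transcript, gave 0.05 ± 0.24. That probe had overlapping groups, at -1.53 and -2.03 in mutants and -1.68 and -1.98 in controls.

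Lifr encodes the receptor chain that binds LIF and pairs with gp130. Its brightest probe gave -1.53 and -1.55 in mutants and -1.41 and -1.19 in controls, a difference of -0.24 ± 0.17 (SE, n = 2 and 2, limma adjusted p = 0.675). A dimmer probe for another RefSeq transcript of the gene (chr15:7135072-7135131, mm9) read an intensity of 23.1 and 22.4 in mutants and 40.1 and 42.7 in controls. On that probe the mutants were lower by a wider margin, with a log2 difference of -0.67 ± 0.25 (limma adjusted p = 0.594, unadjusted p = 0.0426) and -0.71 and -0.64 in the replicate pairs. Whether the probes differ in their response was not tested. The remaining Lifr probe was near background on all 4 arrays. With the mean of the passing probes the gene's difference was -0.46, and without control replicate 2 it was -0.14.

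Il6ra, the private receptor chain for interleukin-6, had log2 signals of 1.16 and 1.59 in mutants and 1.36 and 1.52 in controls. The groups overlapped and the difference was -0.06 ± 0.18 (SE, n = 2 and 2, limma adjusted p = 0.929). Il6st had 1.50 and 1.74 in mutants and 1.51 and 1.92 in controls, again overlapping, with a difference of -0.09 ± 0.18 (limma adjusted p = 0.893). A dimmer Il6st probe (chr13:113294595-113294654, mm9) went the other way at 0.38 ± 0.26, which came from mutant replicate 1, at -0.98 against -1.64 in mutant replicate 2 and -1.80 and -1.58 in controls. The remaining Il6st probe was near background on all 4 arrays. The direction of Il6st is therefore not settled by these probes.

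Stat3 encodes the transcription factor that the receptors activate. Its brightest probe (chr11:100749598-100749657, mm9) had log2 signals of 4.03 and 4.05 in mutants and 3.78 and 3.80 in controls. On this scale, replicates of a genotype differed by far less than the genotypes did. The intensities before scaling overlapped, at 5073 and 4460 in mutants and 4524 and 4567 in controls. The geometric mean of Stat3 in mutants was 1.19 times that in controls (log2 difference 0.25 ± 0.10, SE, n = 2 and 2, limma adjusted p = 0.529, unadjusted p = 0.0458), and the replicate pairs gave 0.25 and 0.26. The SE is moderated by the spread of other genes of like signal, and is larger than the spread of these 4 values alone. Its dimmer probes gave 0.14 ± 0.20 and -0.07 ± 0.31, and the mean of its probes gave 0.11. After quantile normalization the brightest probe gave 0.17, with an unadjusted limma p of 0.0912. The unadjusted p of Stat3 was under 0.05 in 4 of 12 alternative settings.

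**Figure D3:**
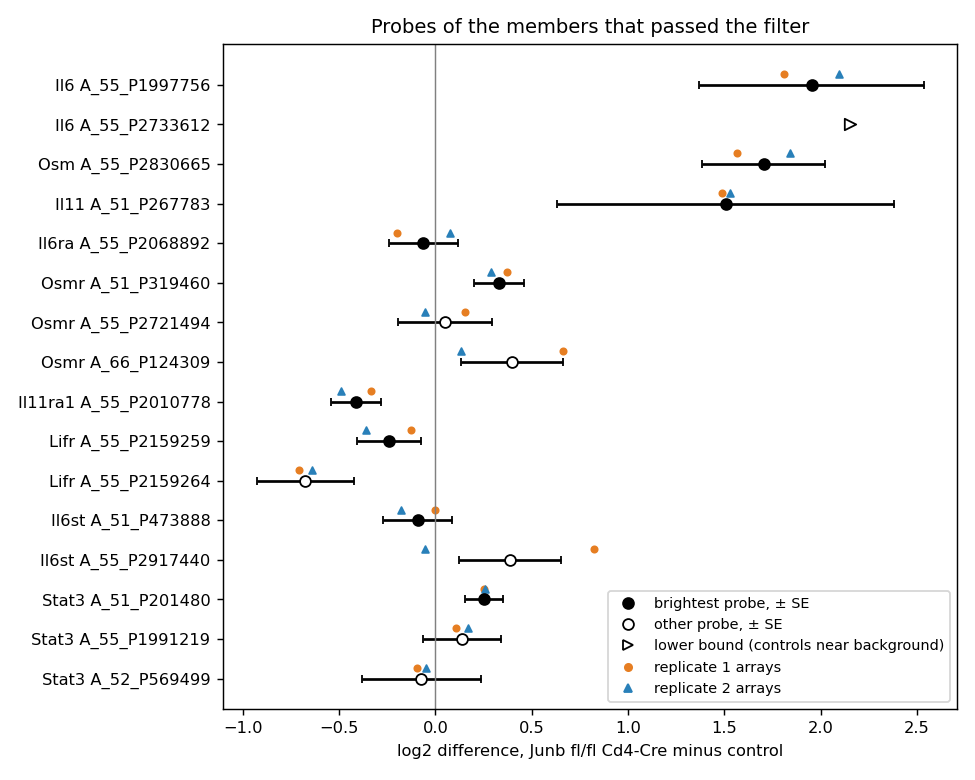
Log2 difference, Cd4-Cre minus control, with its moderated standard error for the probes of the members that passed the filter, and above each the difference within the replicate 1 and the replicate 2 arrays. The second Il6 probe was near background in controls and is drawn as a triangle at its lower bound of 4.44-fold. The brightest Il6 probe, the Osm probe and the Il11 probe lie above 1 in both pairs. Probes of Osmr, Lifr, Il6st and Stat3 are spread by up to 0.5 within a gene.

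The other genes of the pathway were taken from lists chosen with earlier results of these data known, and are described by counts. Of 7 further ligand genes of the family, 4 could be tested, 2 higher and 2 lower, with a median of -0.06 that ranged from -0.18 to 0.05 when 1 array was left out. Ebi3 and Il27, which encode the subunits of interleukin-27, differed by 0.15 ± 0.23 and 0.15 ± 0.17. Cntf, encoding ciliary neurotrophic factor, differed by -0.26 ± 0.18 and Ctf1, encoding cardiotrophin, by -0.37 ± 0.27. The 3 others, Clcf1, Ctf2 and Il31, had no array with a signal well above background. Among further receptor chains, Il27ra, which encodes the private chain for interleukin-27, differed by -0.55 ± 0.24. Of 6 kinase and STAT genes, 3 were higher and 3 lower (median 0.05, and -0.03 without mutant replicate 2). Stat5a, a STAT gene of other cytokine receptors, differed by 0.27 ± 0.12. The proteases Adam10 and Adam17, which can release the IL-6 receptor from the cell surface, differed by 0.11 ± 0.12 and 0.04 ± 0.12.

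Of 6 inhibitors of gp130 signalling, 2 were at least 2-fold higher with an unadjusted limma p under 0.05, where 0.719% of all genes were. The other 4 differed by no more than 0.14. Socs3, which binds gp130 and blocks STAT3 activation, had log2 signals of 4.15 and 4.06 in mutants and 3.08 and 2.99 in controls. Its geometric mean in mutants was 2.10 times that in controls (log2 difference 1.07 ± 0.11, limma adjusted p = 0.373), and both replicate pairs gave 1.07. Socs1 had 2.12 and 1.60 in mutants and 0.70 and 0.49 in controls (1.26 ± 0.21, adjusted p = 0.418). The phosphatase genes Ptpn2, Ptpn6 and Ptpn11 and the STAT3 inhibitor Pias3 lay between -0.14 and -0.02.

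Among 19 tested genes of 20 described as STAT3 targets, 18 were higher and 1 lower in the mutants, with a median log2 difference of 0.63 beside 0.02 over all genes, of which 53.4% were higher. The groups did not overlap for 13 in the higher and 1 in the lower direction, where 25.7% and 17.6% of all genes did so. By the 2-fold rule 4 were higher, beside 0.719% of all genes. Of these, Reg3g and Reg3b, antibacterial lectins of the epithelium, differed by 2.64 ± 0.29 and 1.45 ± 0.28. The others were Lrg1, a secreted glycoprotein, at 1.36 ± 0.45, and Socs3. Reg3g had log2 signals of 7.88 and 7.51 in mutants and 5.44 and 4.66 in controls, and Reg3b had 8.01 and 8.08 in mutants and 7.02 and 6.18 in controls. Both genes were apart between the genotypes by more than between replicates. The median of the list ranged from 0.42 to 0.95 when 1 array was left out, the lowest without control replicate 1 and the highest without control replicate 2. Vegfa, a growth factor gene of blood vessels, was the gene on the lower side, at -0.27 ± 0.12. Normexp correction, quantile normalization and 3 of the 4 settings without an array gave 17 higher and 2 lower. These genes also respond to other signals, and the list holds Socs3 of the inhibitors and Timp1 of the next list.

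All 10 genes listed as responding to oncostatin M in stromal cells had a higher mean in the mutants, with a median of 0.74. Over all genes, 53.4% were higher. The groups overlapped for 5 of the 10 and were apart in the higher direction for 5, against 25.7% of all genes. The 2-fold rule took 4 of them as higher, beside 0.719% of all genes. All 4 were chemokines: Cxcl9 at 2.10 ± 0.23, Cxcl1 at 1.69 ± 0.57, Ccl2 at 1.42 ± 0.55 and Cxcl10 at 1.28 ± 0.19. Without mutant replicate 2 or without control replicate 1, 8 of the 10 were higher and 2 lower, with medians of 0.55 and 0.51. The genes of this list also respond to other signals, and which signal lay behind their values was not tested. Of the 9 genes upstream of Il6 and Osm, 7 were tested and all had a higher mean in the mutants (median 0.14). Without mutant replicate 2 the list had 4 higher and 3 lower with a median of 0.060, and without mutant replicate 1 the median was 0.23. Il1b, encoding the cytokine interleukin-1 beta, had 1.49 and 2.43 in mutants and 0.17 and 0.43 in controls (1.66 ± 0.32), while the other 6 lay between 0.06 and 0.86.

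**Figure D4:**
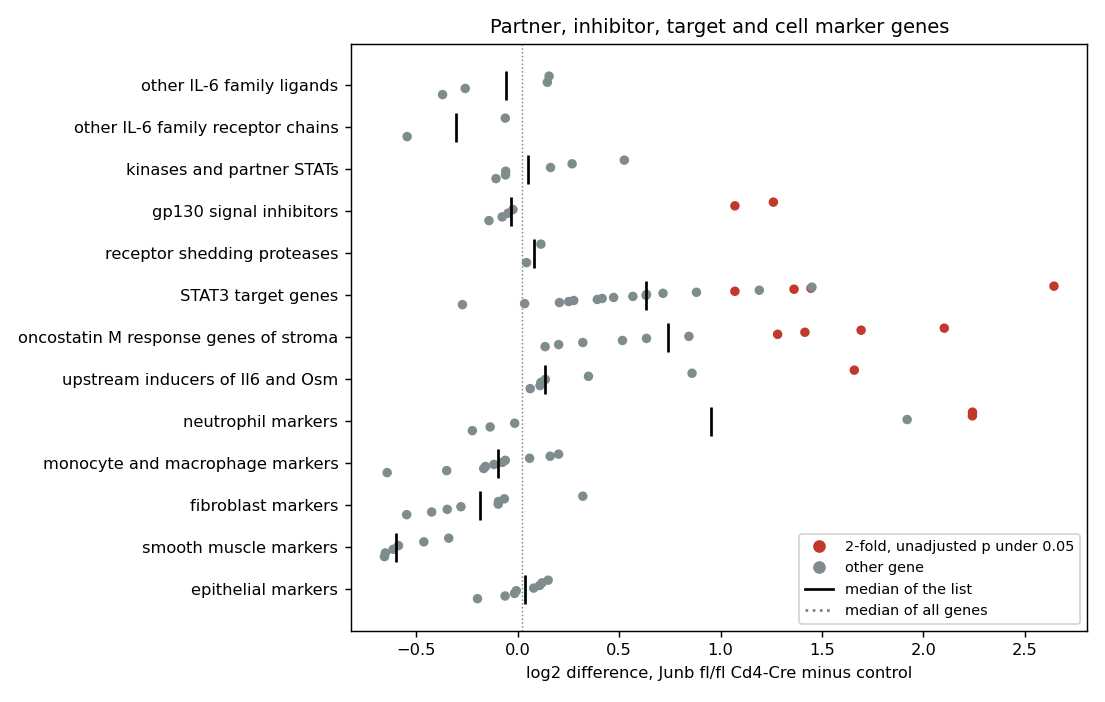
Log2 difference of every tested gene in 13 lists, with the median of each list as a black bar and the median of all genes as a dotted line. The STAT3 target and oncostatin M response genes lie mostly to the right, with medians of 0.63 and 0.74, while the other ligands, receptor chains and kinases lie around 0.

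Markers of the cell types that can make these ligands differed in direction. Of 10 neutrophil markers 6 were tested, 3 higher and 3 lower (median 0.95, and 0.16 without control replicate 1 or 1.62 without mutant replicate 1). Their summed signal was 59.5 and 80.6 in mutants and 56.4 and 51.8 in controls. Csf3r, which differed by -0.015 ± 0.13, was the largest part of this sum on every array. S100a8 and S100a9, which encode calprotectin, had a difference of 2.24 each, with an SE of 0.78 and 0.88, and like Il6 and Il11 they were highest in mutant replicate 2. No array had a signal well above background for the neutrophil granule genes Mpo and Ngp, and Cxcr2 and Mmp8 were so in mutant replicate 2 alone. The monocyte and macrophage markers had a summed signal of 249 and 214 in mutants and 216 and 210 in controls (3 of 10 higher, median -0.10), most of it from Ly6c2. Without control replicate 2 these markers had 8 of 10 higher and a median of 0.15, and without control replicate 1 they had 2 of 10 higher and -0.36, so their direction rests on single arrays. The genes with the smallest p among them were lower, with Mrc1 at -0.64 ± 0.23 and Cx3cr1 at -0.35 ± 0.17. Fibroblast markers summed to 93.2 and 119 in mutants and 93.2 and 146 in controls (1 of 8 higher, median -0.19). Their direction also turned, with 5 of 8 higher and a median of 0.15 without control replicate 2, and 0 of 8 and -0.49 without control replicate 1. The fibroblast genes with the smallest p were Lum at -0.55 ± 0.16 and Thy1 at -0.35 ± 0.18. The part of these cells in the ligand values was not tested.

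Other marker lists had lower medians in the mutants. T cell markers were lower for 9 of 9 genes (median -0.41), where 9015 of all 19325 genes were lower. Without mutant replicate 1, 8 were lower and 1 higher. The CD8 gene Cd8a was at least 2.71-fold lower. It passed the filter through the control arrays alone, so its bound is a description and no separate test. With the filter on all 4 arrays, which leaves Cd8a out, 8 of 8 were lower (median -0.40). Medians were -0.21 for 5 B cell, -0.22 for 4 mast cell, -0.36 for 6 endothelial, -0.60 for 6 smooth muscle, -1.39 for 4 adipocyte and -1.25 for 5 red blood cell markers. Leaving out 1 array moved the mast cell median between -0.97 (without control replicate 1) and 0.61 (without control replicate 2), the endothelial median between -0.61 (without mutant replicate 2) and -0.13 (without control replicate 2), and the B cell median between -0.34 (without mutant replicate 1) and -0.098 (without mutant replicate 2). The red blood cell median was -0.69 without mutant replicate 1 and -0.83 without control replicate 2. Hox genes of the distal colon, markers of position along the gut, had a median of -0.89 over 5 genes, with -0.23 in the replicate 1 pair and -1.96 in the replicate 2 pair, and 0.26 without mutant replicate 2. The part of tissue makeup and of the stretch of colon sampled in the ligand, receptor and Stat3 values was not tested.

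The genes with the most similar profile over the 4 arrays were found for the 3 members with the widest difference, as a description over arrays that share the genotype contrast. For Il6 they were Clec4e, a C-type lectin receptor of phagocytes, the chemokine gene Cxcl1 and the coagulation factor gene F10, with root mean square distances of 0.117, 0.137 and 0.207 log2 units. For Osm they were Hdc, the histamine-forming enzyme, at 0.0574, Il1b at 0.102 and the protease inhibitor gene Serpina3f at 0.140. For Il11 they were the scavenger receptor gene Marco, the hyaluronan-degrading gene Cemip and Calca, a gene for calcitonin and its related peptide, at 0.123, 0.125 and 0.131. Each of those 3 was higher on replicate 2 than on replicate 1 in both genotypes, as Il11 was.

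**Figure D5:**
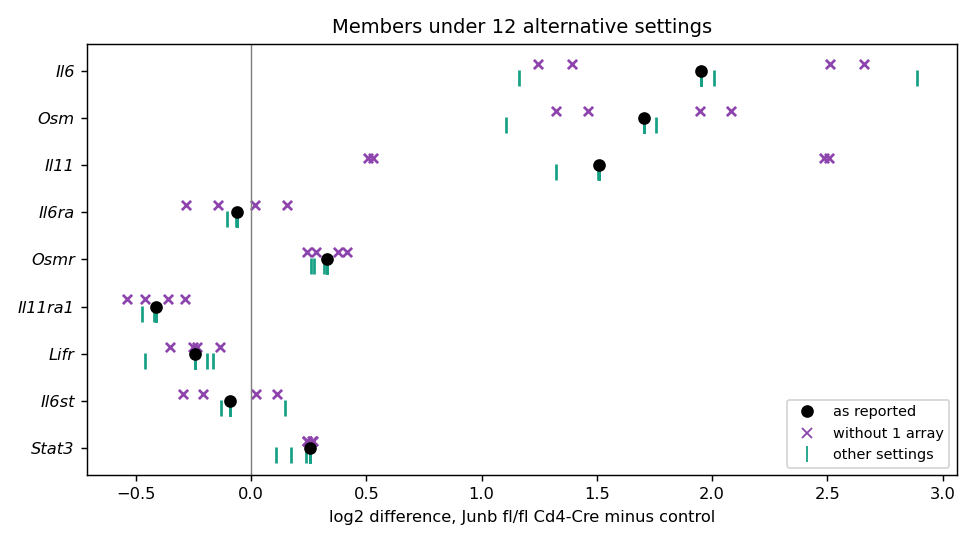
Log2 difference of the 9 members as reported and under 12 alternative settings, of which 4 leave out 1 array. Il6, Osm and Il11 stay above 0.5 throughout, Il11ra1 and Lifr stay below 0, and Il6ra and Il6st lie on either side of 0.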

How the data were processed

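Feature Extraction (Agilent, version 11.5.1.1) produced the spot values, as both the file headers and the submitters' notes record. The deposited values are linear spot intensity, corrected by spatial and multiplicative detrending per the file headers, with no normalization between arrays recorded there. The deposited flags for spots well above background and outliers were used as yes or no values. Log2 intensities were scaled by subtracting the 75th percentile of the non-control spots of the same array. Outlier spots were removed and the rest averaged per probe, which lost 11 probes. A probe was kept if 2 or more of the 4 arrays had it well above background, and the brightest represented its gene. Differences (mutant minus control) were fitted with limma 3.58.1 in R 4.3.3 (intensity trend, no block, two-sided, Benjamini-Hochberg over 19325 genes), and separately over 28897 probes. The fit was tested on simulated data. The 2 arrays per genotype limit the precision. The p-values of the fit without a block rest on the spread between them, moderated by the spread of other genes of like signal. They measure no other source of variation. The members, the 22 lists and the naming rule (all members, genes passing the 2-fold rule or else the 2 smallest p of a list, and the nearest profiles) were chosen with earlier results of these data known. Of the 10 member names, 10 were found in the RefSeq table. Some genes of these lists are not reported here.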

Additional observations from a re-analysis of the deposited data

Results flagged for a closer look

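The direction of Il6ra parted between the replicate pairs, at -0.20 for the mutant against the control of replicate 1 and 0.074 for those of replicate 2. This difference between the pairs was not tested, as each holds 1 array of a genotype. A second Il6ra probe (chr3:89680743-89680802, mm9), which did not pass the filter, read 73.1 in mutant replicate 1, where it was well above background. It read 8.71 in mutant replicate 2 and 15.8 and 5.58 in the controls, and was not well above background on those arrays.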

How the results depend on the processing

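Of the 9 members, Il6, Osm, Osmr, Il11ra1, Lifr and Stat3 kept their direction and stayed short of the adjusted threshold in all 12 alternatives, and Il11 kept its direction. With the replicate block, Il11 passed (1.51, limma adjusted p = 0.0416), and 46 genes passed in place of 0; Il6 and Osm came to adjusted p = 0.0502 and 0.0517. The numbers in the titles pair the arrays by sex in these data and by nothing the labels state, and the block changed no other call of a member. Leaving out 1 array moved Il6 between 1.25 and 2.66, Osm between 1.32 and 2.08, Il11 between 0.51 and 2.51, Il6ra between -0.28 and 0.15 and Il6st between -0.30 and 0.11. With the mean of the passing probes Il6st was 0.15. The count of genes by the 2-fold rule, 263 as reported, was 85 with normexp correction, 571 without the filter on dim probes, 156 with the filter on all 4 arrays and 340 to 500 without 1 array, and 383 with the replicate block. The number of members it took ranged from 1 to 3 without 1 array. The cause of these shifts was not tested, except that the settings with and without a filter test other numbers of genes, and that normexp shrinks dim probes by its offset. Lif, Osm's second probe and 1 probe each of Lifr and Il6st are limited by signal near background.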
